A study of Homo sapiens with 3 samples.

Results

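The comparison described here set DLD1 cells treated with siH19-1, an siRNA against H19, beside DLD1 cells treated with a control siRNA, with 1 array for each. Members were the genes that could be compared. They were chosen by taking probe sets that the platform annotation gives exactly 1 gene symbol, keeping for each gene the probe set with the highest mean log2 signal over the 3 arrays of the series, and requiring a mean of at least 5. This left 9630 of 22465 genes, out of 67528 probe sets. DLD1 is an established human colon cancer cell line, and total RNA was profiled with biotin labelling on an Affymetrix whole-transcript array. The 3 groups of the series are DLD1 with control siRNA, DLD1 with siH19-1 and DLD1 with siH19-2, each transfected with 50 nM siRNA using Lipofectamine RNAiMAX and each profiled from 500 ng of RNA. The labels disagree on the length of transfection, 48 hours in the protocol and 24 hours in the design text. The siRNAs' own sequences were not used here.

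H19 is an imprinted long noncoding RNA, normally transcribed from the maternal copy of a locus shared with the growth factor gene IGF2, and it is the host transcript of the microRNA gene MIR675. It is abundant in fetal tissue, mostly silent in adult tissue, and found again in many tumours, colon cancers among them. An siRNA is a short duplex RNA whose guide strand leads an Argonaute protein to complementary transcripts, which are then cut, and it can also lower transcripts that match only its seed, as a microRNA does.

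Every value is a log2 signal from 1 array, so no replicate bears on a difference and no p-value can be given. A gene is said to rise, fall or change where siH19-1 and control differed by at least 1.5-fold (0.585 on the log2 scale), and values only are given for other genes. Deposited values ran from 1.78 to 19.93, with 315, 319 and 337 probe sets above 16 on the control, siH19-1 and siH19-2 arrays. Since 16 is the top of a 16-bit scanner's log2 range, a fold is a fold on the deposited scale. Over all probe sets the median signal was 3.47 (control), 3.53 (siH19-1) and 3.57 (siH19-2) on this scale. Colon epithelial markers were present in part, with 6 of 10 past the signal minimum and KRT8 the brightest at a mean of 15.45. CDX2 passed with a mean of 7.94, while VIL1 (3.87), LGALS4 (3.53), CEACAM5 (3.11) and CDX1 (3.01) were under the minimum. The summed log2 signal of all 10 was 86.97 on the control array and 89.72 on the siH19-1 array. Most of that difference came from CDH1 (1.83), with EPCAM at -0.04 and KRT18 at 0.00. Fibroblast (0 of 13 measured), leukocyte (0 of 9) and endothelial markers (0 of 5) were all under the minimum. In an RNA extract from a whole culture, fewer cells that express a gene and less RNA per cell cannot be told apart.

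The probe set of the targeted transcript was hardly lower with siH19-1. The probe set TC11001273.hg.1, annotated to H19 and MIR675 together, read 7.88 on the control, 7.74 on the siH19-1 and 7.37 on the siH19-2 array. The siH19-1 difference of -0.14 left 90.8% of the control signal and is under 1.5-fold. Among 1665 compared genes of like signal (within 0.5 log2 units), the differences had an SD of 0.285, and 588 genes were lower by more. On this array the label siH19-1 is therefore not borne out by a fall of its target, and every direction below is that of the array labelled siH19-1 against the array labelled control.

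Of the 9630 genes, 152 rose (1.58% of those compared) and 253 fell (2.63%), 4.21% in all. At a stricter 2-fold, 33 rose (0.343%) and 45 fell (0.467%), or 0.81%. The middle of the distribution lay slightly below 0, with a median difference of -0.06 and an SD of 0.279, and 61.9% of genes read below control by some amount. From the 5th to the 95th percentile, differences ran from -0.47 to 0.35. Of the changed genes 37.5% rose, against 23.2% after median centring of the arrays, 44.9% with quantile-normalized and 47.8% with cyclic loess values, so this share depends on the scaling. Changed genes made up 1.4% of genes with a mean log2 signal from 5 to 6 and 7.3% of those from 11 to 12, with no steady climb: the share was 4.88% from 12 to 13, 8.82% from 14 to 16 and 3.17% above 16. Just inside the threshold lay BACH1-IT2 and C10orf113 (0.59), AKT1S1 and H2AX (-0.59). Just outside lay MIR604 and SH3BP5-AS1 (0.58), TNFRSF12A and TUBGCP3 (-0.58). For 74 genes with more than 1 probe set past the minimum, differences varied between probe sets of a gene with an SD of 0.227. The plot of difference against signal shows the changed genes as a thin fringe around a dense centre.

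**Figure D1:**
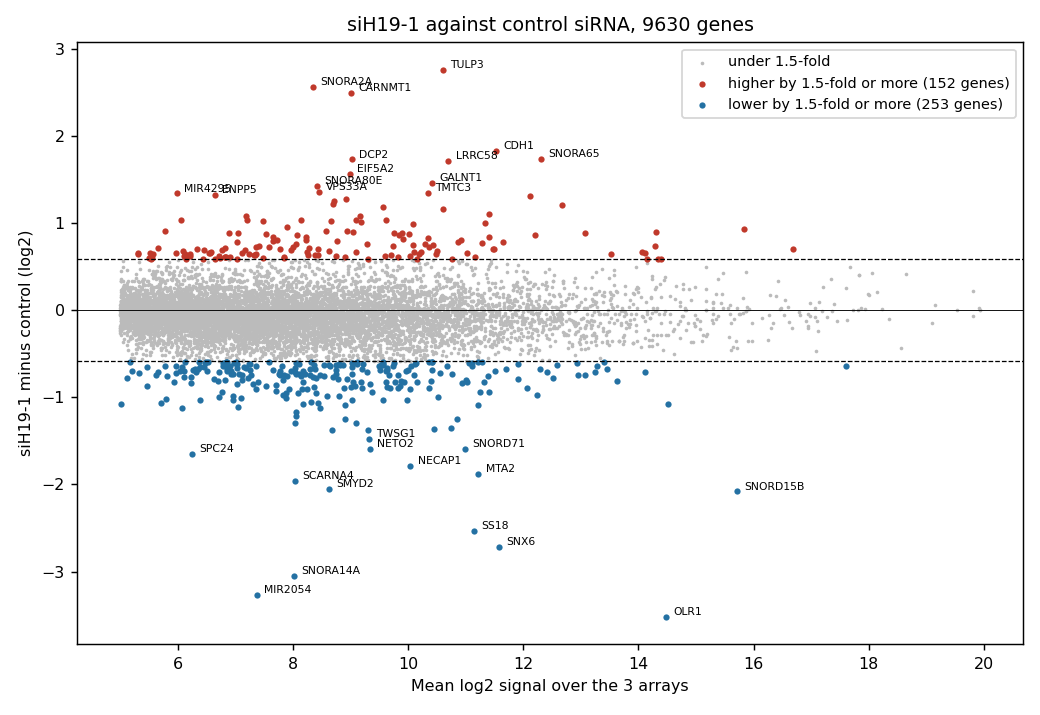
Difference in log2 signal, siH19-1 minus control (vertical axis), against the mean log2 signal over the 3 arrays (horizontal axis), 1 point per gene. Red points are the 152 genes that rose and blue points the 253 that fell by 1.5-fold or more (dashed lines), and OLR1 at the bottom right is the lowest of all at -3.52.

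The sequences shown here belong to the genes that the results on microRNAs and on sterol enzymes turn on. Of 17 microRNA genes that changed, 10 had mature sequences in the RefSeq table (GRCh38.p14) on the chromosome of their probe set, 12 sequences in all with 12 different seeds, so no seed was shared. Shown 5′ to 3′ with the seed (bases 2 to 8) in capitals are the lowest and the highest of these genes, a gene that changed to the same value with either siRNA, and MIR221, widely studied in epithelial cancers.
hsa-miR-2054: cUGUAAUAuaaauuuaauuuauu
hsa-miR-4295: cAGUGCAAuguuuuccuu
hsa-miR-186-3p: gCCCAAAGgugaauuuuuuggg
hsa-miR-221-3p: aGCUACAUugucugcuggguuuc
MIR2054 lies on chromosome 4, MIR4295 on chromosome 10, MIR186 on chromosome 1 and MIR221 on chromosome X. The arrays measured the annotated locus and not the processed mature strand.

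Promoters are shown for the 4 cholesterol synthesis enzymes lowest with siH19-1 among those in the RefSeq promoter table (GRCh38.p14), from 250 bases before the start to 50 after it, 5′ to 3′ on the gene's strand. Capitals mark the letters CCAAT or, for the other strand, ATTGG, the box bound by the factor NF-Y.
NSDHL, chrX:152830813-152831112, + strand: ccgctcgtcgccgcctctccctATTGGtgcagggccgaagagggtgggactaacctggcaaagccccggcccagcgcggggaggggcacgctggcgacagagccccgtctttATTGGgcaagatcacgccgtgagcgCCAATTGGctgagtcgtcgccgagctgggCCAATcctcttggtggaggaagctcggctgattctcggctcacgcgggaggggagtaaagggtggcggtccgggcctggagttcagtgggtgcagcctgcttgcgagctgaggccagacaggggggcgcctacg
MSMO1, chr4:165327419-165327718, + strand: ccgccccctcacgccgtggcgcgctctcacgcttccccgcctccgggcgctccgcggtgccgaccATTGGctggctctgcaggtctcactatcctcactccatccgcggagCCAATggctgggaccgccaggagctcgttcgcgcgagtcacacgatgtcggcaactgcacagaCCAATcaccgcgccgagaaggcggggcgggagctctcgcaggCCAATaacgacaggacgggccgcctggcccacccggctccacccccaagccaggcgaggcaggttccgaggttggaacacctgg
SC5D, chr11:121292521-121292820, + strand: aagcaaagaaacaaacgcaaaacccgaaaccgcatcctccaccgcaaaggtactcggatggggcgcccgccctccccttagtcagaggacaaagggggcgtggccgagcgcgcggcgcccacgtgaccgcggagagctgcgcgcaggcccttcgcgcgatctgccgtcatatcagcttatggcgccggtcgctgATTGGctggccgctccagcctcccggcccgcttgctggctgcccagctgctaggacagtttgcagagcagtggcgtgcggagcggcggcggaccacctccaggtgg
DHCR7, chr11:71448344-71448643, - strand: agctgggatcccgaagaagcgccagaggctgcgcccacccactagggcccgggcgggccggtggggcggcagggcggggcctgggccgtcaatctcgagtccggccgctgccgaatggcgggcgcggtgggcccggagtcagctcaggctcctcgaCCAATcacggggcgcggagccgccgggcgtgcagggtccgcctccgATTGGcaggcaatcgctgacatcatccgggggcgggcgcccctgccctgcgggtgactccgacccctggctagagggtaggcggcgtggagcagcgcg
In NSDHL the box occurs at 5 places, of which CCAAT and ATTGG overlap once, in MSMO1 at 4, in DHCR7 at 2 and in SC5D at 1.

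The deepest falls among protein-coding genes were those of OLR1, SNX6 and SS18. OLR1, the scavenger receptor LOX-1 that takes up oxidised LDL, read 15.86 on the control, 12.34 on the siH19-1 and 15.23 on the siH19-2 array, an 11.5-fold fall. SNX6, a sorting nexin that works with the retromer on the route from endosomes to the Golgi, read 12.50, 9.78 and 12.43 in the same order. SS18, which belongs to the BAF complex that remodels chromatin, read 12.14, 9.61 and 11.71. In all 3 the siH19-1 array was by far the lowest, with differences of -2.72 for SNX6 and -2.53 for SS18. With siH19-2 the differences from the same control array were -0.63 for OLR1, -0.07 for SNX6 and -0.43 for SS18. SMYD2, a lysine methyltransferase, went from 9.41 to 7.36 (9.10 with siH19-2), and MTA2, a subunit of the NuRD deacetylase complex, from 11.94 to 10.06 (11.66). NECAP1, a protein of clathrin-coated vesicles, went from 10.84 to 9.05 (10.23). Their differences were -2.05, -1.88 and -1.79.

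The next lowest protein-coding genes had varied roles. SPC24, a subunit of the NDC80 complex that ties kinetochores to microtubules, fell by 1.65 from a low signal of 6.93. NETO2, an auxiliary subunit of kainate receptors, read 10.25, 8.66 and 9.12 in control, siH19-1 and siH19-2, and TWSG1, a secreted modulator of BMP signalling, read 10.14, 8.66 and 9.15. For these 2 genes both siRNA arrays lay well below control, with siH19-2 differences of -1.13 and -0.99. MTFR1, a regulator of mitochondrial fission, fell by 1.38, and PPIL1, a cyclophilin of the spliceosome, by 1.37. TM4SF1, a tetraspan surface protein of many carcinomas, fell by 1.35, and its siH19-2 value of 11.17 was next to the control value of 11.22. SMARCB1, a core subunit of the same BAF complex as SS18, fell by 1.30 (8.53 to 7.23), as did PDCD5, a protein linked to apoptosis (9.67 to 8.37). The others of the 20 lowest were CHRAC1, a histone-fold subunit of a chromatin accessibility complex (-1.22), SCRN1, secernin (-1.17), C9orf40 (-1.12), PRNP, the prion protein (-1.12), GON7, a subunit of the tRNA-modifying KEOPS complex (-1.11), and PIP5K1A, a kinase that makes the lipid PI(4,5)P2 (-1.09).

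The strongest rises were in TULP3, CARNMT1 and CDH1. TULP3, an adaptor that brings membrane receptors into cilia, read 8.97, 11.73 and 11.12 in control, siH19-1 and siH19-2, and its rise of 2.76 is 6.77-fold. CARNMT1, which methylates carnosine, read 8.17, 10.66 and 8.21, so the control and siH19-2 arrays were alike and siH19-1 stood 5.62-fold above control. CDH1, E-cadherin, read 10.27, 12.10 and 12.23, and there the control array was the one apart. The 2 siRNA comparisons share this single control array, so a low or high control value moves both in step. DCP2, the catalytic subunit of mRNA decapping, rose by 1.73 and LRRC58 by 1.71, and for both of these genes the siRNA arrays lay close together (9.64 and 9.51 for DCP2, 11.28 and 11.24 for LRRC58). EIF5A2, an isoform of the translation factor eIF5A, went from 8.44 to 10.00 with siH19-1 and stayed at 8.52 with siH19-2.

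Among the other genes in the top 20, GALNT1, which starts O-linked mucin glycans, rose by 1.46 (9.60 to 11.06), and VPS33A, a subunit of the HOPS tethering complex, by 1.36. TMTC3, an O-mannosyltransferase of cadherins, read 10.09, 11.44 and 9.49, with the siH19-2 array below control. SDC4, the proteoglycan syndecan 4, rose by 1.31 (11.59 to 12.90, and 11.83 with siH19-2), SETD7, a lysine methyltransferase, by 1.27 (8.49 to 9.76, and 8.50), and the chemokine CCL20 by 1.25. The rest were ENPP5 (1.32), SPRING1, which acts in the processing of the sterol factor SREBP (1.22), CYCS, cytochrome c (1.21), LCLAT1, an acyltransferase of cardiolipin (1.18), SH3BGRL2 (1.16), the glucose transporter SLC2A3 (1.08), POMK, a kinase of the glycans on dystroglycan (1.08), and OSTM1, a lysosomal membrane protein (1.04). Of the 20, ENPP5 and OSTM1 had the lowest control signals, 5.60 and 5.70. The plot of the 40 genes shows some in which siH19-1 stood by itself and some in which both siRNA arrays left the control value. Others, such as CYCS (a difference of 0.57 with siH19-2), lay between.

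**Figure D2:**
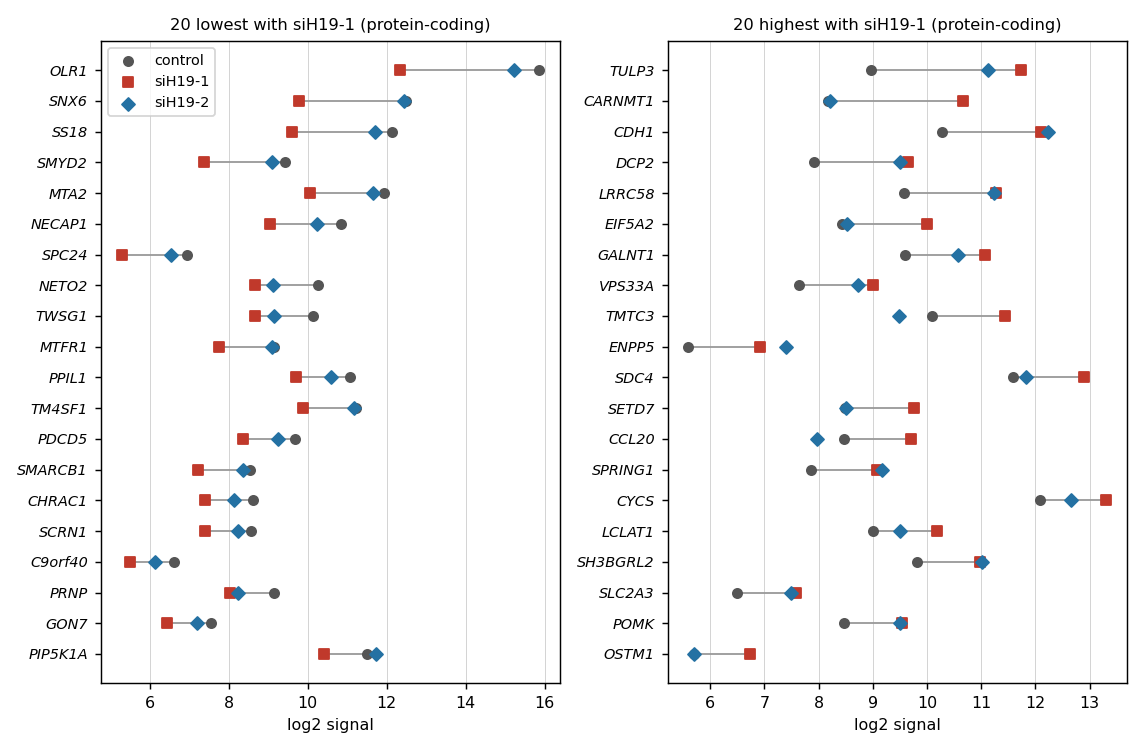
Log2 signal (horizontal axis) of the 20 protein-coding genes lowest (left) and the 20 highest (right) with siH19-1, on the control (grey circle), siH19-1 (red square) and siH19-2 (blue diamond) arrays, 1 array each. OLR1 moved from 15.86 to 12.34 while siH19-2 read 15.23, whereas CDH1 read 12.10 and 12.23 with the siRNAs against 10.27 in control.

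Some kinds of small RNA were more widely spread than messenger RNAs. The 8368 protein-coding genes had an SD of 0.269 and 4.18% changed (122 rose and 228 fell). The 54 compared SNORA genes, H/ACA box RNAs that guide pseudouridylation, had an SD of 0.774, and 16.7% changed (4 rose and 5 fell). For the 75 SNORD genes, C/D box RNAs that guide ribose methylation, the SD was 0.413 and 5.33% changed. Their 5th to 95th percentiles, -0.38 to 0.50, were about as far apart as those of protein-coding genes, -0.48 to 0.32. The 18 small nuclear RNA genes had an SD of 0.216, under that of protein-coding genes, and 1 fell. The 17 SCARNA genes, their relatives of the Cajal body, had an SD of 0.628 and 29.4% changed (1 rose and 4 fell). Long noncoding RNAs were quiet, with 1 of 206 higher and 1 lower, 0.971%.

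Single small nucleolar RNAs moved in either direction. SNORA14A read 9.0, 5.95 and 9.12 in control, siH19-1 and siH19-2, a fall of 3.05 that left the siH19-2 array at the control level. SNORD15B, one of the brightest at 16.55, read 14.47 with siH19-1 and 16.13 with siH19-2. SCARNA4 went from 8.79 to 6.83 (8.48 with siH19-2), and SNORD71 from 11.46 to 9.87 (11.62). In each of these 4 RNAs the siH19-1 array was the lowest. SNORA10 fell by 1.38, and SNORA31 and SNORA52 by 1.25 each. In the other direction SNORA2A went from 6.98 to 9.54 (8.53 with siH19-2), its neighbour in name SNORA2B from 7.09 to 7.96 (7.53) and SNORA65 from 11.40 to 13.14 (12.38). SNORA80E rose by 1.43, SNORD42A by 0.88 and the vault RNA VTRNA2-1 by 1.10 (10.76 to 11.86).

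By their median, microRNA genes lay above protein-coding genes. The median difference was 0.13 over 197 genes, against -0.07 for protein-coding genes, and 14 rose and 3 fell, or 8.63%. MIR2054 had the deepest fall of them and read 9.15, 5.88 and 7.08 on the control, siH19-1 and siH19-2 arrays, the lowest gene of any kind after OLR1. MIR3613 (5.82 to 5.10) and MIR4296 (9.04 to 8.41) fell as well. MIR4295 rose from 5.38 to 6.72, with 5.84 on the siH19-2 array. MIR221 (5.07 to 5.72) and MIR186 (6.11 to 6.77) rose by 0.65 and 0.66 from signals near the minimum. The 29 members of the MIR548 family, primate microRNAs derived from transposable elements, had a median of 0.22, and 5 rose and 0 fell (17.2%). Among these 5, the probe sets of MIR548AL and MIR548F3 lie on another chromosome than the RefSeq entry of that name. MIR548H3 read 13.67, 14.57 and 14.69, but another probe set of that gene differed by 0.17. Members of this family are near-identical in sequence, so a signal may be shared between them. The plot by kind of RNA shows the wide SNORA row and the MIR548 row to the right of 0.

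**Figure D3:**
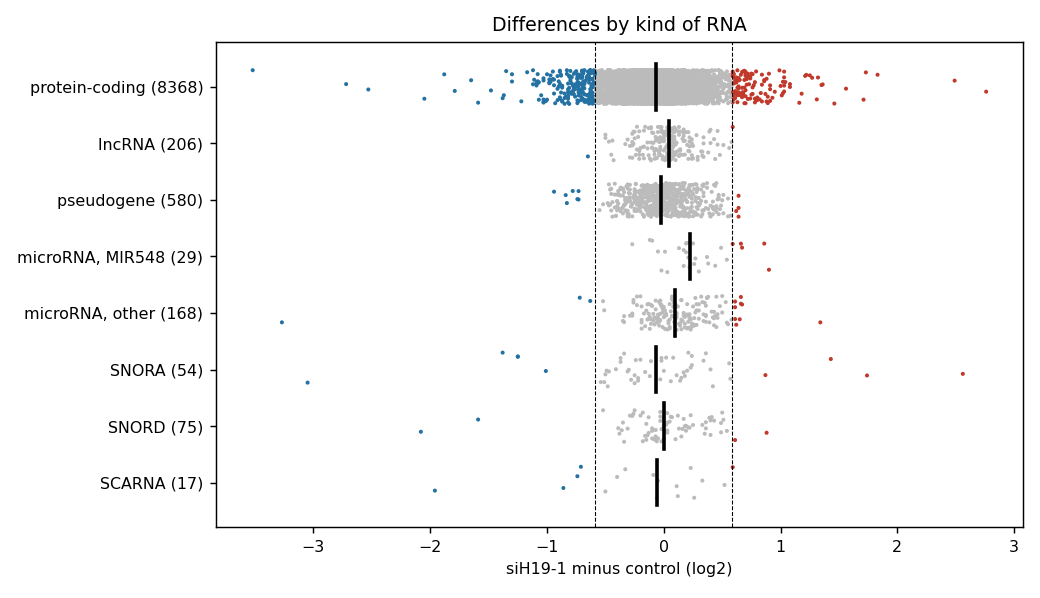
Difference in log2 signal, siH19-1 minus control (horizontal axis), for each compared gene, by kind of RNA with the number of genes in brackets, and a black bar at each median. Dashed lines mark 1.5-fold, coloured points lie past them, and the MIR548 median of 0.22 is the farthest from 0.

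Functions were described with 110 gene lists that cover 3491 of the compared genes. The lists do not hold every gene of a function, so a count refers to the listed genes alone. Of the 405 changed genes, 176 were on a list and 229 on none. Medians were read against the -0.06 of all genes, and shares of changed genes against 4.21%. Counts of genes below control are to be read against the 61.9% of all genes. The 3 other scalings moved the median of all genes by at most 0.06. Of 107 lists with at least 5 compared genes, 59 had a median under that of all genes, and in 25 no member changed.

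Enzymes of cholesterol synthesis read below control almost throughout, most of them by less than 1.5-fold. Of 17 compared enzymes 16 read below control, the median was -0.45, and 3 fell while 0 rose (17.6% changed). NSDHL, a sterol dehydrogenase that helps to strip methyl groups from the ring, read 8.31, 7.55 and 7.81 in control, siH19-1 and siH19-2. MSMO1, the methyl sterol oxidase that acts just before it, read 11.42, 10.66 and 12.05, so the siRNA arrays lay on opposite sides of control. SC5D, a desaturase of the last steps, read 9.56, 8.94 and 9.16, and was under 1.5-fold after quantile normalization and cyclic loess. DHCR7, which makes cholesterol from its last precursor, was at -0.57 and ACAT2, at the entry of the pathway, at -0.53. Both reached 1.5-fold after median centring. SQLE, the squalene epoxidase, read 10.20, 9.73 and 10.67, and HMGCS1, the synthase of the early pathway, 9.47, 9.0 and 9.52. Early and late steps of the pathway were thus below control with siH19-1, whereas with siH19-2 the enzymes lay on either side of it. CYP51A1 (-0.04) and PMVK (-0.11) lay close to control. GGPS1, whose branch leads to geranylgeranyl groups and not to sterols, was the 1 enzyme above control, at 0.39.

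In RNA signal, the listed genes that control sterol synthesis did not share the low median of its enzymes. The 11 compared genes of SREBP control and sterol uptake had a median of -0.06, that of all genes, and SPRING1 was the 1 that changed, going from 7.86 to 9.08 (9.17 with siH19-2). FASN, the fatty acid synthase, fell from 9.06 to 8.43 (8.39) and was the 1 of 16 fatty acid synthesis genes that changed, under 1.5-fold after quantile normalization and cyclic loess. SGPP1, a phosphatase of sphingosine 1-phosphate, fell by 0.67. The lists of fatty acid oxidation (21 genes) and glycerolipid and phospholipid synthesis (23) had 0 changed genes. The acyltransferases LCLAT1 (1.18), LPCAT2 (0.64) and GPAT3 (0.59), which are on neither, rose. In the promoter table, 11 of 15 cholesterol enzymes held the CCAAT box (73.3%), against 61.1% of replication genes (33 of 54), 38.4% of 7271 compared genes and 35.7% of all 27305 promoters. The letters TCACNCCAC, a form of the sterol regulatory element, were found on either strand in 0 of the 15 windows and in 1.03% of compared genes. At so low a share, 15 windows are too few to tell these enzymes from other genes. The share with a CCAAT box was 40.5% among 185 genes that fell and 35.6% among 101 that rose, both near that of all compared genes.

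**Figure D4:**
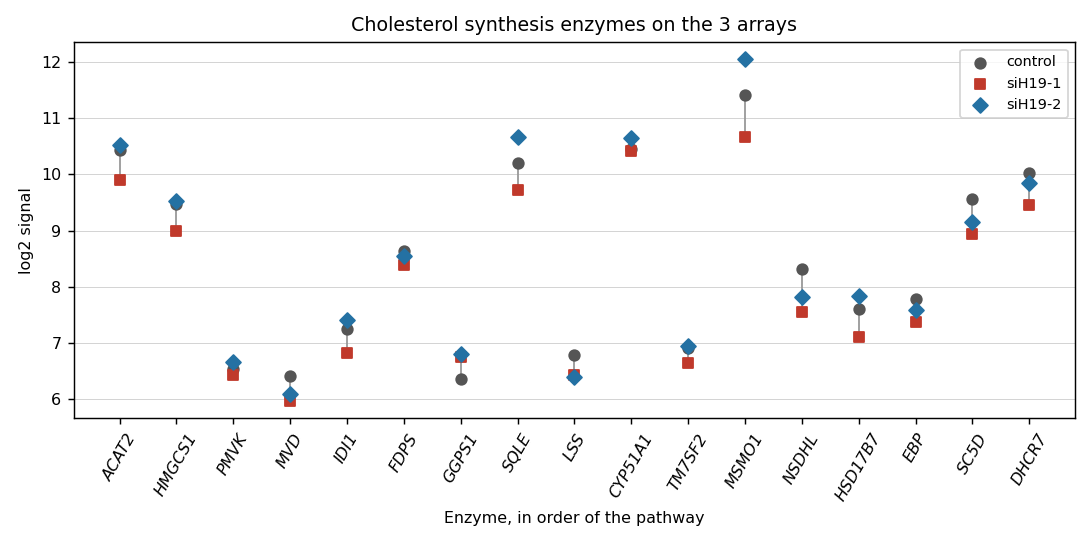
Log2 signal (vertical axis) of the 17 compared cholesterol synthesis enzymes, ordered along the pathway (horizontal axis), on the control (grey circle), siH19-1 (red square) and siH19-2 (blue diamond) arrays, 1 array each. The siH19-1 value is the lower of the joined pair for every enzyme except GGPS1 (6.35 in control, 6.74 with siH19-1).

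Sugar handling showed changes in a few genes. Of 8 genes of glucose uptake and sensing, 3 changed (37.5%). TXNIP, an arrestin that slows glucose uptake, read 7.60, 6.70 and 9.48 in control, siH19-1 and siH19-2, falling with one siRNA where the other array was higher. Its relative ARRDC4 read 7.85, 7.16 and 6.77, and the transporter SLC2A3 rose from 6.50 to 7.58 (7.50). SLC2A1, the main basal transporter, was at -0.39. HK2, the hexokinase of many tumours, fell from 7.98 to 7.13 (6.83), and PDHX, a structural subunit of pyruvate dehydrogenase, rose from 7.34 to 8.29 (8.06), the only 2 of 27 glycolysis and pyruvate entry genes to change. All 6 pentose phosphate genes read below control (median -0.26), lowest at PGD with -0.44, and 0 changed. In the TCA cycle, OGDH (9.12 to 8.33) and DLST (11.44 to 10.71), which belong to the same 2-oxoglutarate dehydrogenase complex, fell.

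Several genes of mitochondrial translation and protein import fell. Of 70 mitochondrial ribosomal protein genes, 6 fell and 0 rose (8.57%), with a median of -0.18. MRPL3 went from 12.50 to 11.61 (12.07 with siH19-2) and MRPS7 from 10.18 to 9.29 (10.02). MRPL15, MRPS21, MRPS34 and MRPL11 fell by 0.68 to 0.74. Protein import had a median of -0.24 over 18 genes, and TOMM5, a small subunit of the outer membrane channel (10.79 to 9.90), and TIMM13, a chaperone between the membranes (9.72 to 9.01), fell. TWNK, the mitochondrial DNA helicase, fell by 1.00 (7.25 to 6.25). None of the 37 complex I genes on the list changed (median -0.09), but NDUFAB1, the acyl carrier subunit, fell (11.16 to 10.42, and 7.90 with siH19-2) and the assembly factor TIMMDC1 rose (9.36 to 10.18, and 10.19), both outside the list. Of 42 genes of complexes III to V, COX4I1 fell (12.19 to 11.40) and SCO1, a copper chaperone, rose (9.41 to 10.27). In the set of 13 fusion and fission genes, MFN2, a fusion GTPase, fell by 0.63 beside MTFR1, though MFN2 was under 1.5-fold after quantile normalization and cyclic loess, and OPA1 was at 0.10.

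Genes of DNA replication made up the largest block of falls in the cell cycle. Of 63 compared genes 11 fell and 1 rose (19%), 53 read below control, and the median was -0.26. LIG1, the ligase that joins Okazaki fragments, read 7.31, 6.33 and 7.25 in control, siH19-1 and siH19-2, and POLE3, a histone-fold subunit of polymerase epsilon, read 9.18, 8.20 and 9.01. For both, siH19-1 alone was low. CDC45, a component of the replicative helicase, read 7.90, 6.99 and 7.18, and GINS2, another, 9.10, 8.22 and 7.79. ASF1B, a histone chaperone, fell by 0.82, while its relative ASF1A rose by 0.63. DSCC1, of the alternative clamp loader, fell by 0.80, the MCM helicase subunit MCM5 by 0.64, and the kinase CDC7 by 0.63. MCM2, MCM10 and RNASEH2A fell by 0.60 each. These 3 and CDC7 were under 1.5-fold after quantile normalization and cyclic loess, which left 7 falls, and ASF1A was under it after median centring, which gave 14.

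Regulators of entry into S phase moved with the replication genes. Of 29 RB and E2F regulators 4 fell and 0 rose (13.8%), with a median of -0.23. CDC25A, a phosphatase that activates cyclin-dependent kinases, read 9.08, 8.03 and 7.84 in control, siH19-1 and siH19-2. CCND1, cyclin D1, read 13.07, 12.36 and 11.83, and CCNE2, cyclin E2, 8.59, 7.88 and 7.64. FOXM1 fell by 0.62, under 1.5-fold after quantile normalization and cyclic loess. RB1 itself was at 0.10, E2F1 at -0.23 and CDK4 at -0.49. The letters TTTGGCGC or TTTCCCGC, 2 forms of the E2F site, stood on either strand in 18 of 54 promoters of replication genes (33.3%), against 4.03% of compared genes and 2.31% of all promoters. Over all genes that fell the share was 3.78%.

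In mitosis and repair, changes were fewer. Of 38 mitotic cyclins, kinases and phosphatases 3 fell: BIRC5, survivin (10.07 to 9.19, and 9.64 with siH19-2), RACGAP1, which organises the central spindle (10.46 to 9.77, and 8.29), and CCNB1, cyclin B1 (13.11 to 12.48, and 12.18), the last under 1.5-fold after quantile normalization and cyclic loess. At the centromere SPC24 and CENPX (-0.62) fell and CENPQ, of the constitutive centromere network, rose by 1.03 (7.39 to 8.42). CENPX was under 1.5-fold after quantile normalization and cyclic loess. None of 23 cohesin and condensin genes changed. Among repair genes NBN, which senses double-strand breaks with MRE11 and RAD50, rose by 0.80 (7.91 to 8.71), and TDG, a glycosylase of mismatched thymine, by 0.67. Of 27 genes of purine and pyrimidine synthesis 0 changed, although 23 read below control (median -0.21), lowest at IMPDH2 with -0.57.

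Ribosome assembly was lowered in several of its factors, while the ribosomal proteins stayed near control. Of 89 biogenesis factors 9 fell and 0 rose (10.1%), 72 read below control and the median was -0.22. MAK16, of the large subunit, read 11.25, 10.25 and 10.03 in control, siH19-1 and siH19-2, and WDR43, of the small subunit processome, 12.89, 11.92 and 11.89. In both, the siRNA arrays lay close together and well under control. The helicases DDX54 (-0.89) and DDX21 (-0.81), RRP36 and NOC2L (-0.82 each), TSR3 (-0.75), NOLC1, a nucleolar partner of box C/D and H/ACA particles (-0.64), and RRP8 (-0.62) fell as well, RRP8 going under 1.5-fold after cyclic loess. The 52 cytosolic ribosomal protein genes had a median of -0.06 and ran from -0.46 to 0.17 with 0 changed.

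Among translation factors the changes were mostly rises. Of the 62, 42 read below control (67.7%, near the 61.9% of all genes), and the median was -0.10. The 4 that rose were EIF5A2, EIF4EBP2, a repressor of cap-dependent initiation (10.73 to 11.73, and 11.52 with siH19-2), the poly(A)-binding protein PABPC4 (10.39 to 11.19, and 11.19) and EIF1AX, which acts in start codon choice (13.90 to 14.64, and 14.32). The 1 fall was EIF4A1P2, a pseudogene whose probe set may also read its parent gene. Of 35 aminoacyl-tRNA synthetases FARSA, a subunit of the phenylalanine enzyme, fell (11.90 to 10.96, and 10.87), and the median was -0.19. Of 70 tRNA processing genes 3 fell and 0 rose (4.29%, near the 4.21% of all genes). They were POP4, of RNase P (-0.74), WDR4, of the m7G methyltransferase (-0.71), and the pseudouridine synthase PUS3 (-0.68). In mRNA decay the exosome gene EXOSC5 fell by 0.84 (11.68 to 10.84, and 10.31 with siH19-2) against the rise of DCP2. No gene of 67 SR and hnRNP proteins changed, and the spliceosome gene CDC5L (-0.60) was the 1 of 67 genes on the list of core factors past 1.5-fold, and under it after quantile normalization and cyclic loess. PPIL1 (-1.37) and the SF3b subunit PHF5A (-0.87), not on that list, fell too. Argonaute and microRNA processing genes, which carry out RNA interference, had a median of -0.18 over 12 genes and 0 changed.

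Chromatin genes included some of the deepest single falls. SS18 and SMARCB1 changed among the 39 genes of the remodelling list, whose median was -0.07. CHRAC1 and BAZ2A (-0.63), the large subunit of the NoRC remodeller, are not on that list and fell too. In the acetylation list MTA2, GATAD2A (7.49 to 6.87) and the acetyltransferase KAT5 (7.10 to 6.49) fell, and MTA2 and GATAD2A are both NuRD subunits. GATAD2A was under 1.5-fold after cyclic loess, and KAT5 after cyclic loess and quantile normalization. SETD7 was the 1 of 55 genes on the methylation list that changed, and SMYD2, not on it, fell as described above. PHC3 (0.63, and under 1.5-fold after median centring) was the 1 of 23 listed polycomb genes. Among 21 replication-dependent histones H2BC13 (5.94 to 5.07) and H2AC21 (9.54 to 8.81) fell and H4C3 (14.19 to 14.78) rose (14.3%), H4C3 only just and not after median centring. In elongation ELOA, elongin A, fell by 1.03 (10.37 to 9.34, and 8.98 with siH19-2), and CCNT2, a cyclin of P-TEFb, rose by 0.59, which median centring undid. The 248 compared zinc finger genes (ZNF) showed 0 changes, with differences from -0.47 to 0.57 and a median of -0.03. Their median signal of 6.58 is a level at which 3.49% of all genes changed.

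Changes in signalling included parts of the TGF-beta and WNT pathways. Of 28 TGF-beta, BMP and ID genes 4 fell and 1 rose (17.9%). Beside TWSG1, the ubiquitin ligase SMURF2 fell from 10.42 to 9.39 (10.14 with siH19-2), the inhibitor of differentiation ID1 from 7.18 to 6.41 (4.75) and the decoy receptor BAMBI from 8.41 to 7.81 (8.71). The transducer SMAD5, on the list of reported miR-675 targets too, rose from 8.26 to 8.94 (8.70). ID1 was lower still with siH19-2, while BAMBI was above control there, and it was under 1.5-fold after quantile normalization and cyclic loess. The ligand BMP4 was at -0.04 and SMAD4 at -0.07. In the WNT list the receptors FZD6 (7.69 to 6.66, and 6.52) and LRP5 (7.18 to 6.48, and 7.11) and the planar polarity protein VANGL1 (9.09 to 8.14, and 7.97) fell, 3 of 34. The Hedgehog receptor PTCH1 fell by 0.69 and the Hippo scaffold MOB1A by 0.80.

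Growth factor and kinase genes changed singly. EGR1, an immediate early transcription factor, fell from 10.86 to 9.95 (9.29 with siH19-2). ERRFI1, a feedback inhibitor of the EGF receptor, rose from 11.89 to 12.75 (11.97). RPS6KA1, a kinase below ERK, fell from 8.12 to 7.19 (7.83), and MAP3K2 rose by 0.59, under 1.5-fold after median centring. AKT1S1, an inhibitor within mTORC1, sat at the threshold with -0.59 and was under it after quantile normalization and cyclic loess. None of 10 MYC network genes and none of 17 hypoxia genes changed.

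Genes of NF-kB signalling and chemokines rose in 4 cases and fell in 0, of 30 (13.3%), with a median of -0.04. CCL20, which attracts lymphocytes and dendritic cells through CCR6, read 8.46, 9.71 and 7.98 in control, siH19-1 and siH19-2. CXCL5, a neutrophil chemokine, read 15.81, 16.74 and 14.98, and MYD88, the adaptor of Toll-like receptors, 7.79, 8.39 and 6.27. In these 3 genes the siRNA arrays lay on opposite sides of control. REL, an NF-kB subunit, rose from 9.80 to 10.47 (10.06). MYD88 was under 1.5-fold after median centring. The subunits NFKB1 (-0.44) and RELA (-0.40) and the chemokines CXCL2 (-0.43), CXCL1 (-0.06) and CXCL8 (0.08) did not reach 1.5-fold, so the rise did not cover the list. Of 24 interferon and RNA sensing genes 0 changed, from ADAR at -0.49 to IFI6 at 0.46. In antigen presentation the NKG2D ligand ULBP1 fell by 0.64.

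The lists of folding and stress genes held few changes beyond PDIA3. They leave out some changed genes, among them FKBP5 (-0.90) and VCP (-0.68). PDIA3, a disulfide isomerase of the endoplasmic reticulum, read 14.87, 13.79 and 14.87 in control, siH19-1 and siH19-2, so siH19-1 alone was low. It has a processed pseudogene, and the arrays may not separate the 2. DERL2, of ER-associated degradation, fell by 0.64, under 1.5-fold after cyclic loess. SLC7A11, the cystine transporter, rose by 0.76 and the superoxide dismutase SOD1 was at -0.59, under 1.5-fold after cyclic loess. Of 23 cytosolic chaperones 20 read below control, with a median of -0.19 and 0 changed, lowest at CCT3 with -0.57. Proteasome genes (44) had a median of -0.16 and 0 changed. CYP1B1, a cytochrome P450 induced by the aryl hydrocarbon receptor, fell by 1.08 (8.92 to 7.84), and its other probe set differed by -0.50. In the death lists CYCS and PMAIP1, a BH3-only protein (6.87 to 7.89, and 7.67 with siH19-2), rose.

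Within some complexes of membrane traffic, genes changed in opposite directions. Of 40 genes of COPI, COPII and TRAPP 2 rose and 3 fell (12.5%, against 4.21% of all genes). The COPII coat subunits SEC23A (9.81 to 8.96) and SEC23B (11.05 to 10.33) and the GTPase SAR1A (11.49 to 10.89) fell. The cargo-binding subunits SEC24A (10.12 to 10.85) and SEC24D (7.31 to 8.15) rose. SAR1A was under 1.5-fold after quantile normalization and cyclic loess. Of 34 genes of HOPS, CORVET, ESCRT and endosome tethering 2 rose and 2 fell (11.8%). In the ESCRT machinery the ATPase VPS4A (8.37 to 7.40) and CHMP2A (8.90 to 8.14) fell, and CHMP2B (10.76 to 11.41) rose. Of 41 RAB genes 9.76% changed. RAB14, RAB1B and RAB2A fell by 0.62 to 0.74 and RAB18 rose by 0.74. RAB2A was under 1.5-fold after quantile normalization and cyclic loess and RAB1B after cyclic loess. SNX6 was the 1 of 28 genes on the sorting nexin and retromer list that changed (3.57%). Changed genes were 2.63% of 38 SNARE and syntaxin genes and 2.38% of 42 clathrin adaptor and exocyst genes. They were 3.57% of 28 lysosomal genes, so all these shares were under that of all genes. SEC61A1, the protein channel of the endoplasmic reticulum, fell by 0.70.

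In the lists of epithelial genes every gene that changed rose, but no list held more than 2 such genes. CDH1 was the 1 of 13 adherens junction genes past 1.5-fold, and 0 of 20 listed tight junction and 0 of 8 desmosome genes changed. Outside these lists CXADR (0.70), a junctional adhesion receptor, rose, while MPZL2 (-0.61), CFTR (-0.65) and PODXL (-0.77) fell. GALNT1 and B3GNT5, which build mucin and lactoseries glycans, rose among 19 mucin and O-glycosylation genes. In N-glycosylation MAN1A1, a trimming mannosidase, and MGAT4A, a branching enzyme, rose by 0.70 each and ALG10, of the lipid-linked precursor, fell by 0.70. AGR2, an isomerase of mucin-producing cells, rose from 7.60 to 8.36 (8.19 with siH19-2), GRHL3, an epithelial transcription factor, from 6.12 to 6.82 (6.04), and the focal adhesion kinase gene PTK2 from 6.91 to 7.54 (7.55), the last not after median centring. On the list of 7 genes of O-mannosylation of dystroglycan POMK changed, and TMTC3, not on it, rose as well. Of 9 compared genes on the list of imprinted genes PLAGL1, a zinc finger factor, was the 1 that rose, from 7.41 to 8.21 (7.54). The plot of gene groups shows how low cholesterol synthesis lay against the other lists. Members of the groups with the highest medians lay on both sides of 0.

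**Figure D5:**
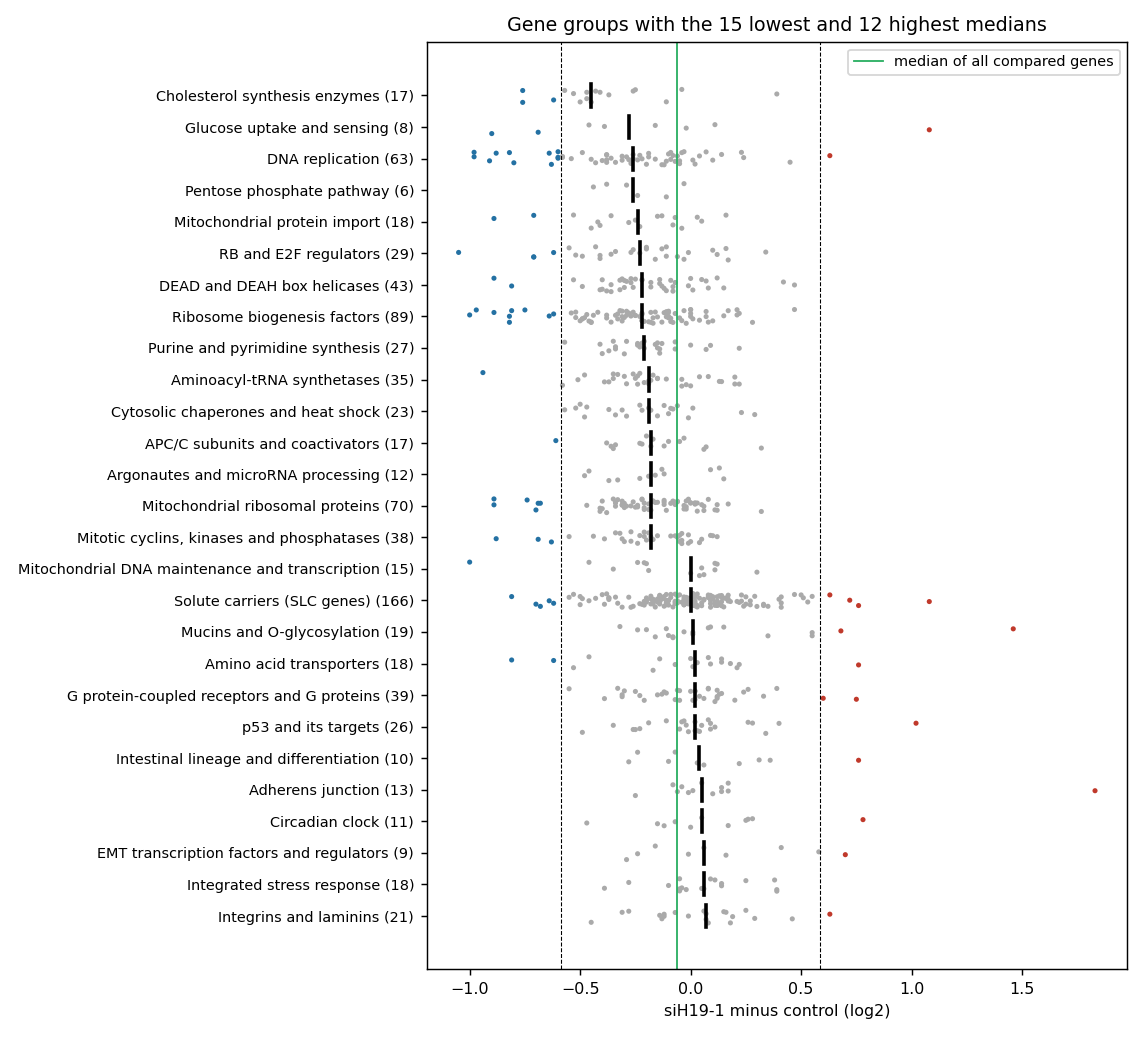
Difference in log2 signal, siH19-1 minus control (horizontal axis), for the members of the 15 gene lists with the lowest and the 12 with the highest medians, with the number of compared genes in brackets and a black bar at each median. Blue and red points fell or rose by 1.5-fold or more (dashed lines), the green line is the median of all genes (-0.06), and cholesterol synthesis is lowest at -0.45.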

How the data were processed

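RNA of DLD1 cells was measured on 3 arrays, 1 each for control siRNA, siH19-1 and siH19-2, grouped by the treatment label. Deposited values are log2 signals that, per the submitters' processing notes, come from Affymetrix Expression Console and RMA, which subtracts background, equalises arrays and combines the probes of a probe set. Neither versions nor the reason for values above 16 are given there. The number of arrays limits the precision, and detection calls were not used here.

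From these values the siH19-1 minus control difference was computed for each gene, with no test. The platform annotation, which can be old, gave 1 symbol to 23781 of 67528 probe sets, several to 1543 and none to 42204. The signal minimum (mean log2 of 5 over the 3 arrays) left out 12835 of 22465 genes. Gene kinds and sequences came from RefSeq tables (GRCh38.p14). Members, gene lists and naming rules were chosen with earlier results of these data known. Genes were named by a rule: H19, the 20 highest and lowest protein-coding genes, the 8 highest and lowest of other types, list members past 1.5-fold (otherwise the 2 largest differences), and all compared members of lists with at least 3 times the share of changed genes and of cholesterol synthesis. Not every gene that the rule took is printed. Genes beyond the rule, given to show a list's other members or genes that a list leaves out, and the changed microRNAs were named after their values were seen. The alternatives were median centring, quantile normalization and cyclic loess (limma 3.58.1 in R 4.3.3), other signal minimums, the mean of the 2 compared arrays, the mean of a gene's probe sets, genes above 16 left out, and 2-fold. Other steps used Python 3.11.15, numpy 2.4.6, pandas 2.3.3 and matplotlib 3.10.9, and the fold rule was tested on simulated data.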

Additional observations from a re-analysis of the deposited data

How the results depend on the processing

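No paired analysis was possible because each group has 1 array. At 2-fold, 33 genes rose and 45 fell in place of 152 and 253, the one alternative that moved either count by over 1.5 times. Median centring gave 107 and 355, quantile normalization 172 and 211, cyclic loess 187 and 204, no signal minimum 189 and 273, and a minimum of 7 117 and 195. Of the 405 changed genes, 360, 357 and 356 remained changed after median centring, quantile normalization and cyclic loess. Of 213 changed genes that the naming rule took, 38 went under 1.5-fold in at least 1 of these scalings. Of the 3554 values of all 456 genes the rule took, 0 turned a change into its opposite. Only the 213 changed genes could do so. Their differences are at least 0.585, and the scalings moved the median of all genes by at most 0.06. This 0 therefore says little about the directions. The mean of all probe sets moved CYP1B1 to -0.79, LIN54 to -0.06, MIR548H3 to 0.36 and UBE2S to -0.38, the last 2 under 1.5-fold. The median of 15 nuclear receptor genes turned from -0.12 to 0.13 over the 5 genes that passed a minimum of 7, fewer genes by construction. Medians close to 0, such as the 0.02 of amino acid transporters, changed sign with the scaling. With 1 array per group the spread between cultures is not known, and the SD of 0.227 between probe sets of a gene does not measure it.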

Other observations

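Transporters changed in both directions. Of 166 solute carrier genes 4 rose and 5 fell (5.42%, near the 4.21% of all genes), with a median of 0.00. SLC1A5, a glutamine transporter, read 10.80, 9.99 and 10.41 in control, siH19-1 and siH19-2, and SLC7A8, a carrier of neutral amino acids, 12.01, 11.39 and 12.29, the latter under 1.5-fold after cyclic loess. The nucleoside transporter SLC29A1 fell by 0.64 and the zinc transporter SLC39A1 by 0.70. Metallothionein MT2A, which binds zinc, rose from 16.58 to 17.28 (16.22), above the top of a 16-bit scale. ABCA12, a lipid transporter of epithelia, rose by 0.89 and the mitochondrial carrier ABCB10 by 0.66. The calcium pump ATP2A2 of the endoplasmic reticulum fell by 0.71 (13.73 to 13.02, and 13.01), and the lysosomal channel MCOLN1 by 0.75. Of 30 mitochondrial carriers (SLC25) and 20 iron and heme genes 0 changed.

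Of 101 cullin ligase and conjugating enzyme genes 5 rose and 2 fell (6.93%), of 52 deubiquitinases 1 rose (1.92%), and of 60 nuclear transport genes 2 rose and 1 fell (5.0%), shares not far from the 4.21% of all genes. The conjugating enzymes UBE2V2 (9.28 to 10.16, and 9.83 with siH19-2) and UBE2B (7.86 to 8.53, and 8.36), the adaptor KLHL2 and the deubiquitinase OTUD4 (8.56 to 9.57, and 9.40) rose, while KLHL18 fell by 0.87 and UBE2S by 0.61 (9.73 to 9.12, and 8.24), UBE2S under 1.5-fold after quantile normalization and cyclic loess. TNPO1, an import receptor, rose by 0.88 (12.59 to 13.47, and 13.16), and the pore gene POM121, which has near-identical copies, fell by 0.64. In cilia TULP3 was the 1 of 38 genes that rose, while TCTN2 (-0.68) and CLUAP1 (-0.62), of the transition zone and of intraflagellar transport, fell, CLUAP1 not after cyclic loess. CLOCK, a circadian transcription factor, rose from 10.65 to 11.43 (10.52).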
